A study of Mus musculus with 32 samples.

Results

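Transcripts of 10 metalloprotease genes were followed in E0771 cells, a mouse mammary carcinoma line, grown in culture and as tumours. The 10 genes were taken by symbol from the 4 deposited expression tables, which list 22609 genes (culture and Rag1-/- hosts) or 25277 genes (day 4 and day 6), and all 10 are present in every table. They comprise 5 membrane-anchored ADAM genes (Adam8, Adam10, Adam12, Adam17 and Adam19) and 5 secreted ADAMTS genes (Adamts1, Adamts2, Adamts4, Adamts5 and Adamts12). The study asked about the role in mammary tumour growth of DDR1, a receptor tyrosine kinase that binds collagen, and it holds 32 RNA sequencing libraries in 8 groups.

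In culture, 3 libraries of DDR1 wild-type (WT) E0771 cells were compared with 2 of DDR1 knockout (KO) cells. The WT libraries are the parental cells, cells titled EV and cells titled Ctrl, numbered 1, 2 and 3 below, and the KO libraries are 3-6 and 3-7, numbered 1 and 2. In Rag1-/- mice, which lack mature T and B cells, 5 WT and 5 KO tumours were compared. In C57BL/6 mice at day 4, 4 WT and 5 KO tumours were compared; the design text says that E0771 cells were moved from Rag1-/- to C57BL/6 hosts. In C57BL/6 mice at day 6, 4 tumours given IgG were compared with 4 given an antibody that its name ties to human DDR1 (extracellular part), and the labels give no DDR1 genotype for these. The labels do not give the age of the mice, the way the KO was made, whether each KO line is 1 clone, or whether libraries of a group came from separate cultures or animals. P-values therefore measure only the spread between these samples, which may be technical.

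ADAM proteases cut the outer part of other membrane proteins from the cell surface, a step called shedding. ADAM10 and ADAM17 are the main sheddases of most tissues, release Notch, EGF receptor ligands and TNF among others, and need tetraspanin or iRhom partners to mature; ADAM10 is also known to shed the DDR1 ectodomain. ADAMTS proteases act outside the cell on matrix: ADAMTS1, ADAMTS4 and ADAMTS5 cut the proteoglycans versican and aggrecan, ADAMTS2 trims the amino-terminal propeptide from procollagen, and ADAMTS12 can cut cartilage oligomeric matrix protein. Both families depend on a zinc ion held by a histidine motif, and some members of both are inhibited by tissue inhibitors of metalloproteinases.

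The zinc-binding site is what makes all 10 genes proteases of 1 superfamily, so its coding sequence is shown for each. Capitals mark the codons of the 3 zinc-binding histidines, of the catalytic glutamate next to the first of them, and of the glycine or asparagine between the second and the third. A search of the reading frames of GENCODE transcripts found 1 such site of 33 bases in each gene, and coordinates are those of GRCm38 (the mm10 build).
Adam8: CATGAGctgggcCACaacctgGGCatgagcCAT
Adam12: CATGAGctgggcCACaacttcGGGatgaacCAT
Adam19: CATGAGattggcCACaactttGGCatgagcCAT
Adam10: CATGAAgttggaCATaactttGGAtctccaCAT
Adam17: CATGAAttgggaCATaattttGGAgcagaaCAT
Adamts1: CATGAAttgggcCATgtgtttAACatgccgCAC
Adamts4: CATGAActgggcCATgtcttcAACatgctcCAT
Adamts5: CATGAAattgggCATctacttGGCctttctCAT
Adamts2: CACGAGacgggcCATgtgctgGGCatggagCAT
Adamts12: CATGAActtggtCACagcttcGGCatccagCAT
Adamts1 and Adamts4 share 27 of the 33 bases and are the only members with an asparagine codon in the block of capitals before the last, where the other 8 have a glycine codon. Adam8 shares 29 of 33 bases with Adam12 and 29 with Adam19, and Adam10 shares 26 with Adam17. The Adamts12 site shares between 19 (with Adamts2) and 25 (with Adam12) of 33 bases with the other members.

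The sites lie in coding exons, and for some genes an intron splits them. The Adam8 site is at chr7:139987893-139987925 in exon 11 of 24 on the minus strand, the Adam12 site at chr7:133961158-133961190 in exon 11 of 23 on the minus strand, and the Adam17 site at chr12:21336732-21336764 in exon 12 of 20 on the minus strand. The Adam19 site is at chr11:46125050-46125082 in exon 11 of 23 on the plus strand. The Adam10 site is split between exons 9 and 10 of 16 at chr9:70754296-70761585 on the plus strand. All 5 ADAMTS sites are split: Adamts1 at chr16:85799191-85799545 (exons 3 and 4 of 9, minus strand), Adamts4 at chr1:171253210-171253915 (exons 3 and 4 of 9, plus strand), Adamts5 at chr16:85878015-85887826 (exons 2 and 3 of 8, minus strand), Adamts2 at chr11:50775403-50776134 (exons 7 and 8 of 22, plus strand) and Adamts12 at chr15:11241529-11255564 (exons 7 and 8 of 24, plus strand). Adamts1 and Adamts5 are neighbours on chromosome 16, 53059 bases apart. No stretch of 50 transcript bases is shared between 2 of the 10 genes, and the share of such stretches that also occurs in a gene outside the 10 is 3.03% for Adam12, 1.30% for Adam17, 0.668% for Adamts2 and 0.211% for Adam19, and 0 for the other 6. Adam17 shares 311 exon bases, 4.35% of its exons, with Iah1 on the opposite strand, and whether counting used strand is not known, so a part of its reads is uncertain.

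Culture libraries held 29270919 to 37425032 reads, those of Rag1-/- hosts 18967300 to 25516204, those of day 4 from 20148955 to 28600639 and those of day 6 from 20220028 to 39732635. Ddr1 was checked first. Its normalised count (reads divided by a size factor per library) was 5854 to 7187 in WT and 665 to 914 in KO cells in culture. The tumours of Rag1-/- hosts had 3645 to 4057 in WT and 686 to 886 in KO, and those of day 4 had 3091 to 4195 in WT and 615 to 1181 in KO. The log2 change of Ddr1 was −3.03 in culture, −2.34 in Rag1-/- hosts and −2.23 at day 4 (limma, adjusted p = 0.00409, 3.88e-11 and 0.00366). At day 6 its level was 15.9 to 22.1 RPM (reads scaled to a common library total) with IgG and 18.5 to 28.5 RPM with the antibody, against 132 to 175 RPM in the WT and 27.9 to 49.7 RPM in the KO tumours of day 4. Luminal epithelial markers (Krt8, Krt18, Krt19, Epcam and Cdh1) summed to 164 to 239 RPM over the culture libraries and 185 to 717 RPM over the tumours, and none was at 0 in all libraries of a table.

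In culture, 6 of the 10 genes were expressed above a mean normalised count of 10 and were tested. Adam12 and Adamts5 had 0 reads in all 5 libraries, where 3 reads would have been 0.0802 to 0.102 RPM. Adam19 reached at most 9.37 normalised counts, in WT library 1, and Adamts2 at most 2.34, in the same library. Per kilobase of exon, which allows genes to be compared, the level in the WT cells was 36.0 ± 2.5 RPM per kb for Adam10 (SD, n = 3) and 28.9 ± 0.77 for Adam17. It was 19.2 ± 4.8 RPM per kb for Adamts4, 5.96 ± 0.54 for Adamts1, 2.95 ± 3.5 for Adam8 and 0.129 ± 0.11 for Adamts12. Adam10, Adam17 and Adamts4 did not overlap one another in mean ± SD, whereas the SD of Adam8 was larger than its mean.

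**Figure D1:**
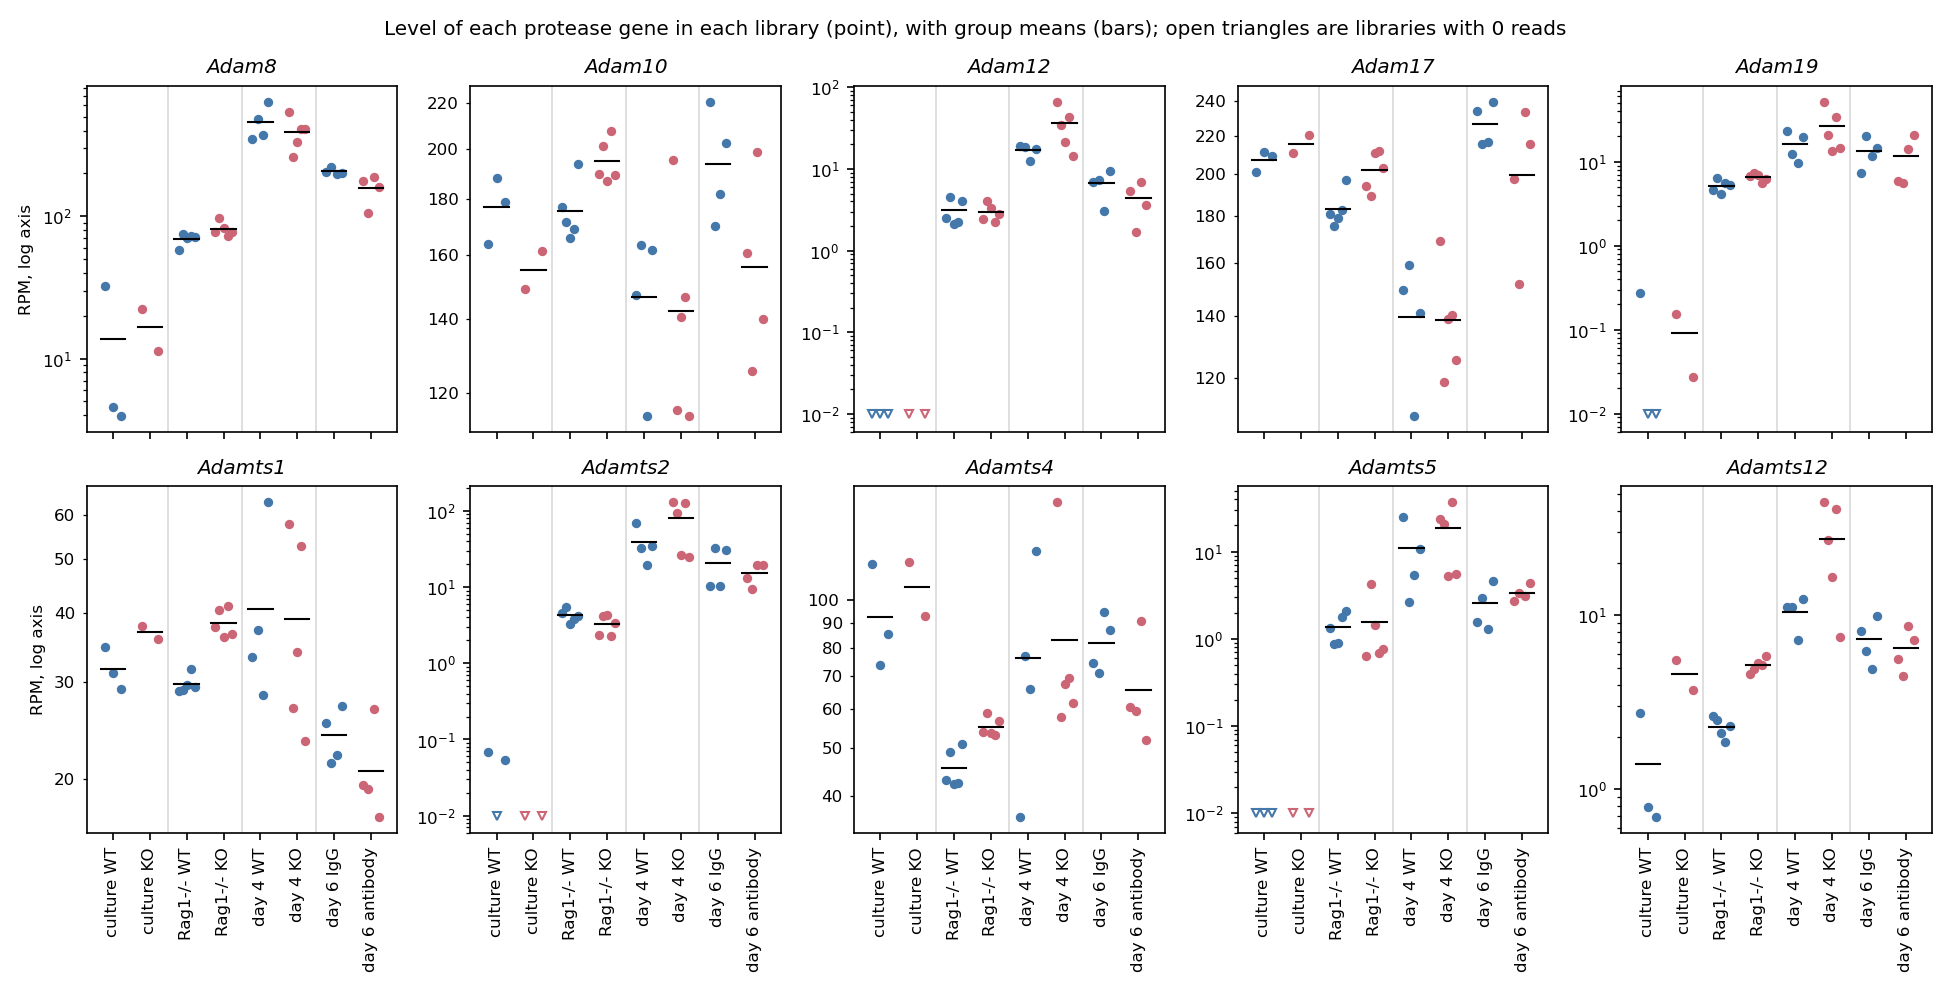
Level of each of the 10 genes in RPM (log axis) in each library of the 8 groups (blue, WT or IgG; red, KO or antibody), with group means as bars where no library is at 0. Open triangles, drawn at the lower edge, are libraries with 0 reads: Adam12 and Adamts5 have none in the 5 culture libraries and are detected in all 27 tumours.

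All 10 genes were tested in the 3 tumour tables, and the order of levels differed from that in culture. Adamts12 had rank 6 of 10 in cultured WT cells, 9 in WT tumours of Rag1-/- hosts and 10 at day 4. Its level did not fall with its rank, at 0.129, 0.209 and 0.959 RPM per kb in these groups. Adam8, a sheddase known from leukocytes, moved up in rank. Adam8 stood at 15.0 ± 1.5 RPM per kb in WT tumours of Rag1-/- hosts (n = 5), 99.2 ± 28 at day 4 (n = 4) and 44.5 ± 2.2 at day 6 with IgG (n = 4). Its rank among the 10 was 5 in cultured WT cells, 3 in WT tumours of Rag1-/- hosts and 1 in the WT and IgG tumours of day 4 and day 6. The tables were normalised separately, so levels are set side by side here without a test. Adam10 stayed between 29.0 and 39.7 RPM per kb over the 8 group means, and Adam17 between 19.4 and 31.7. At the low end, Adamts5 (0.128 ± 0.049 RPM per kb), Adamts12 (0.209 ± 0.029) and Adam12 (0.294 ± 0.11) were lowest in WT tumours of Rag1-/- hosts. Of these, Adamts12 and Adam12 overlapped in mean ± SD. In WT tumours at day 4 Adam12 stood at 1.59 ± 0.28, Adamts5 at 1.02 ± 0.92 and Adamts12 at 0.959 ± 0.20 RPM per kb, and the range of Adamts5 overlapped both others.

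Marker genes of leukocytes and fibroblasts also differed between settings. The macrophage and monocyte list has 6 of 7 genes in the culture and Rag1-/- tables and 7 in the others, and the neutrophil list 5 of 6 and 6, so their sums rest on unlike gene sets. Macrophage and monocyte markers summed to 14.2 to 50.9 RPM over the culture libraries and, over the tumours, to 703 to 1191 (Rag1-/- hosts), 1331 to 3841 (day 4) and 2380.5 to 9840 RPM (day 6). Neutrophil markers summed to 0.854 to 4.30 RPM over the culture libraries and, over the tumours, to 13.2 to 17.2 (Rag1-/- hosts), 89.2 to 599 (day 4) and 13.8 to 56.5 RPM (day 6), with their highest sums, like the highest Adam8 levels, at day 4. Fibroblast markers summed to 99.3 to 837 RPM in culture and 864 to 14396 RPM over the tumours. In bulk RNA, fewer cells of a type and less RNA per cell cannot be told apart, and the part of these cells in the levels was not tested.

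**Figure D2:**
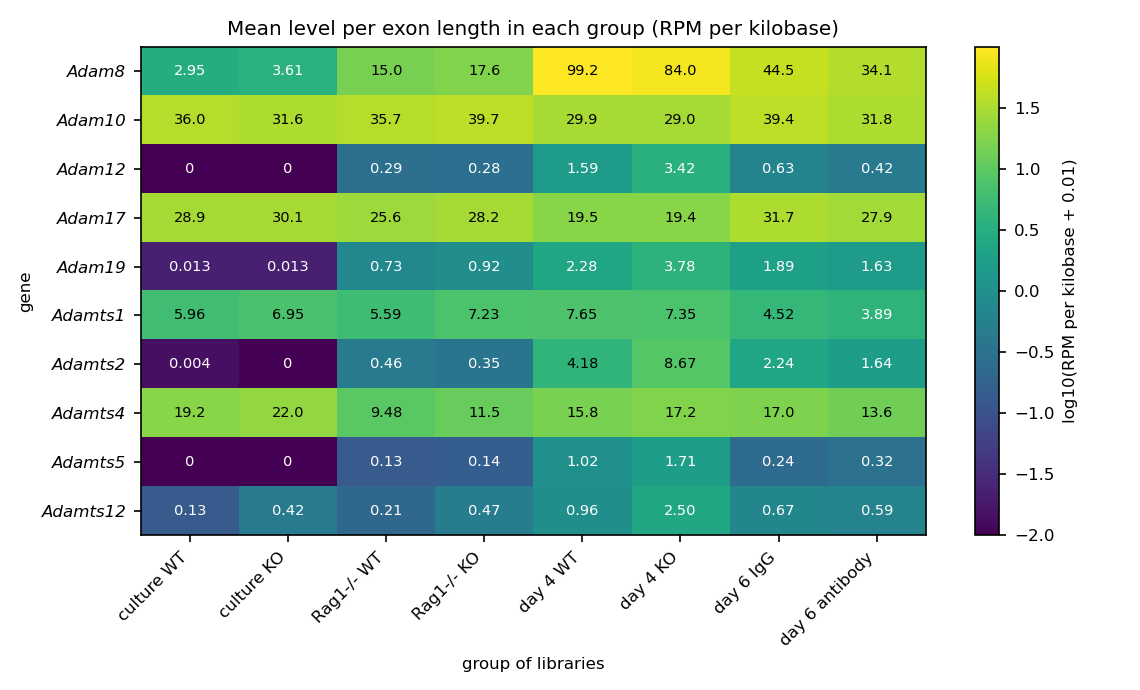
Mean level per exon length (RPM per kilobase; colour on a log10 scale) of the 10 genes in the 8 groups. Adam10 and Adam17 hold similar levels across the columns, while Adam8 goes from 2.95 in cultured WT cells to 99.2 in WT tumours at day 4.

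In Rag1-/- hosts 3 ADAMTS genes rose in KO tumours: Adamts12, Adamts1 and Adamts4. Each gene was tested with limma on log2(normalised count + 1) over all 12795 genes whose mean reached 10, and p was adjusted by Benjamini-Hochberg; the same was done for all changes below. Of all genes tested in this comparison 22.7% passed an adjusted p of 0.05, and 11.3% passed and were higher in KO tumours. Here 3 of the 10 genes passed, all higher, and none lower (background 11.4%). No ADAM gene passed.

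Adamts12 had normalised counts of 56.4, 53.8, 45.5, 40.6 and 48.5 in the 5 WT tumours and 97.2, 103, 110.3, 109 and 122 in the 5 KO tumours. Every KO tumour was above every WT tumour. It rose by 1.13 on the log2 scale (SE 0.13, 95% interval 0.86 to 1.41, adjusted p = 7.15e-05). Among all tested genes 0.610% had a smaller p and 1.14% a larger change. The authors' deposited table gives an adjusted p of 2.69e-08 for the same gene.

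Adamts1 had 616, 619.8, 639, 688 and 617 normalised counts in WT and 793, 845, 743, 862 and 766 in KO tumours. The groups did not overlap, and each was tight, so a rise of 0.33 on the log2 scale (SE 0.06, 95% interval 0.20 to 0.46) passed at an adjusted p of 0.00173. Adamts4 had 918, 1053, 915, 926 and 1070.2 normalised counts in WT and 1136, 1235, 1106, 1119.9 and 1189 in KO tumours. Its groups did not overlap either, and it rose by 0.25 (SE 0.06, 95% interval 0.12 to 0.38, adjusted p = 0.0107). Groups did not overlap, with KO higher, for these 3 of the 10 genes and for 7.85% of all tested genes (15.0% in either direction).

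Promoters are shown for the members that rose and have an entry in the RefSeq-based table (GRCm38.p6), as the 250 bases before the transcription start, 5′ to 3′. Capitals mark matches to a TATA box (TATAAA) or a GC box (GGGCGG), searched on both strands together with an AP-1 motif (TGANTCA) and a RUNX motif (TGTGGT).
Adamts1, chr16:85803114-85803363, minus strand: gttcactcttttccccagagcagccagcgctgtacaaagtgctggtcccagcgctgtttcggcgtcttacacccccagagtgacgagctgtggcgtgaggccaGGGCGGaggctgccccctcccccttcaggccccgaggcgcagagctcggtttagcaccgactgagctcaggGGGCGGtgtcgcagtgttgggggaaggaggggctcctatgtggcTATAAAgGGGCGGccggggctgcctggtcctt
Adamts12, chr15:11064523-11064772, plus strand: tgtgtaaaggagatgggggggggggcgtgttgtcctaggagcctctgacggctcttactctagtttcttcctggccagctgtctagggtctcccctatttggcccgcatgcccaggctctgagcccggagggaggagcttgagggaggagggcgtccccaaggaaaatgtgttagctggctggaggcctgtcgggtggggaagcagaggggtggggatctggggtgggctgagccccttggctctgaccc
The Adamts1 window held 3 GC boxes and 1 TATA box, which starts 32 bases before the transcription start, and the Adamts12 window held none of the 4 motifs. Among 32851 promoter windows of 300 bases, 13.6% held the TATA box, 35.7% the GC box, 7.81% the AP-1 motif and 16.8% the RUNX motif, so a match is common and no factor's binding was measured.

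The other 7 genes did not pass in Rag1-/- hosts. The sheddases Adam10 and Adam17 were measured tightly: Adam10 had 3585 to 4062 normalised counts (median 3685) in WT and 3850.4 to 4361 (median 3994) in KO tumours, and Adam17 had 3765 to 4130.3 (median 3863) and 3961 to 4452 (median 4253). Both pairs of groups overlapped, with differences of 0.12 (95% interval 0.01 to 0.22, adjusted p = 0.0944) and 0.11 (0.01 to 0.20, adjusted p = 0.104). Adam10 passed when WT tumour 5 was left out (adjusted p = 0.0366, over all 20 alternatives 0.0366 to 0.216). Adam8 differed by 0.20 (adjusted p = 0.107) and Adam19, a sheddase of neuregulin, by 0.30 (adjusted p = 0.105).

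Adamts2 was the one member with an unadjusted p under 0.05 in the other direction, with 96.6, 119, 70.6, 84.2 and 86.6 normalised counts in WT and 49.5, 87.8, 87.6, 48.1 and 71.1 in KO tumours. The groups overlapped, and the difference was −0.43 (95% interval −0.86 to −0.01, adjusted p = 0.134). Adam12 (−0.06, 95% interval −0.55 to 0.44) and Adamts5 (−0.19, 95% interval −1.14 to 0.77) had the widest intervals of the 10. In all, 8 of 10 genes had an unadjusted p under 0.05, against 36.1% of all tested genes. The median log2 change was 0.16 over the 10 genes and −0.00 over all tested genes.

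Marker genes of other cells overlapped between the groups in Rag1-/- tumours, and their called counts stand against the 22.7% called among all genes. Fibroblast markers summed to 973 to 1635 RPM in WT and 864 to 1373 in KO tumours, with 1 of 10 higher (Pdgfra) and 1 lower (Dpt). Pericyte markers summed to 250.3 to 316 RPM in WT and 208 to 257 in KO tumours, with 2 of 6 lower (Acta2 and Pdgfrb). In culture the same list summed to 312 to 443 RPM in WT and 207 to 256 in KO libraries. The E0771 cells thus express genes of this list themselves, and it does not mark host cells alone. The same holds for the fibroblast list, which summed to 99.3 to 156 RPM in WT and 361 to 837 RPM in KO libraries in culture. Macrophage markers summed to 749.9 to 939 and 703 to 1191 RPM, with 1 of 6 higher (Mrc1), and endothelial markers to 159.9 to 198 and 165 to 221 RPM, with 0 of 6 passing. Epcam, an epithelial marker, also passed (higher, 1 of 4), as did the red blood cell marker Alas2 (higher, 1 of 1 tested). Alas2 was the only red blood cell marker with reads there, with 0.178 to 0.540 RPM in WT and 0.348 to 4.30 in KO tumours. Adipocyte markers summed to 5.95 to 67.8 and 8.43 to 113 RPM (median log2 change −1.85, 0 of 4 passing). The part of these cells in the 3 rises was not tested. All 3 genes that rose were also expressed by the cultured cells.

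**Figure D3:**
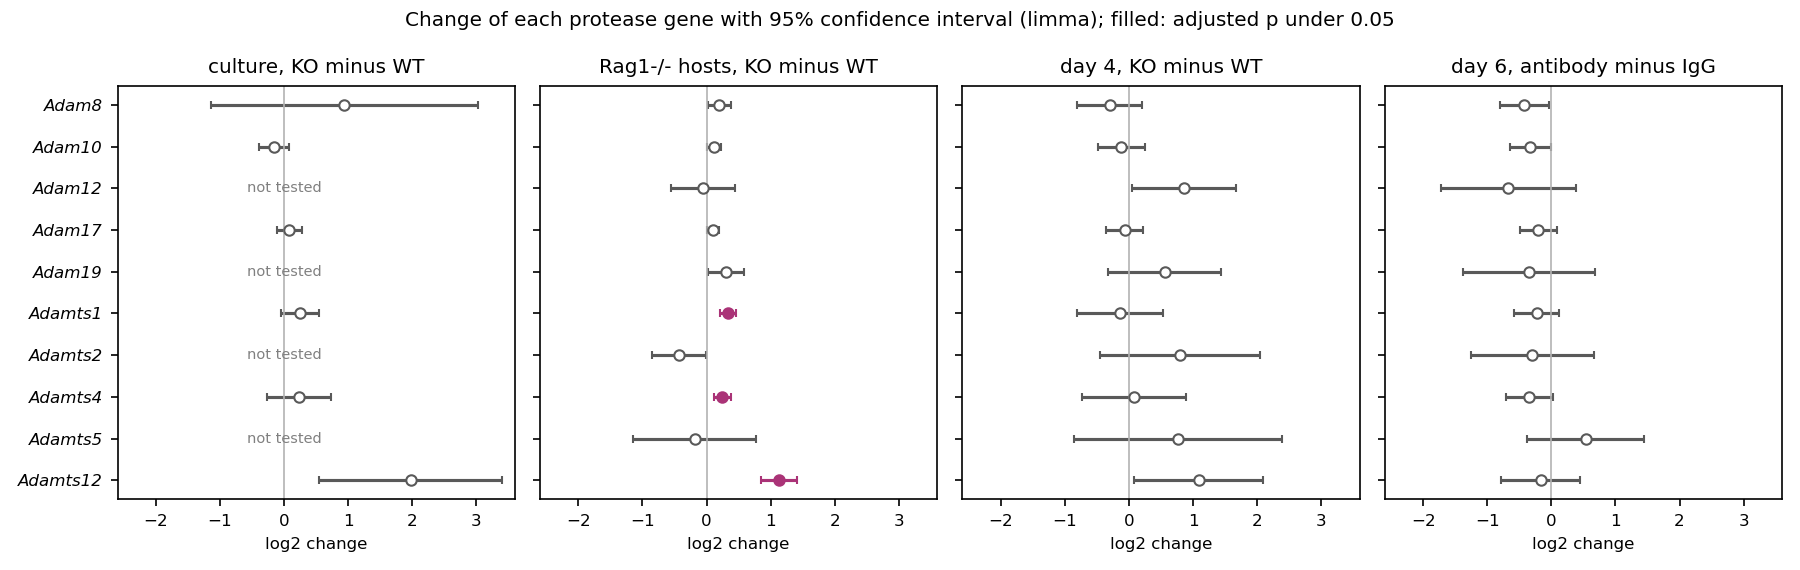
Log2 change of each gene with its 95% confidence interval (limma) in the 4 comparisons; filled points passed an adjusted p of 0.05. Only Adamts1, Adamts4 and Adamts12 in Rag1-/- hosts are filled, and the Adamts12 points of the 3 KO comparisons lie at 1.98 (culture), 1.13 (Rag1-/- hosts) and 1.09 (day 4), the first and last with wide intervals.

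The wider pathway was read from lists of related genes. Of the 14 other ADAMTS genes, 9 were tested in Rag1-/- hosts, and 4 rose: Adamts20 by 1.39 (SE 0.15, adjusted p = 5.14e-05; 43.1 ± 6.9 normalised counts in WT, 115 ± 17 in KO, SD, n = 5 each), Adamts8 by 1.25 (SE 0.27, adjusted p = 0.00526), Adamts9 by 0.46 and Adamts14 by 0.31. Among all genes tested there, 11.3% rose and 11.4% fell. None of the 9 fell, and their median change was 0.13, against −0.00 over all tested genes. Of the 8 other ADAM genes 4 were tested: Adam9, a widely expressed sheddase, rose by 0.17 and Adam33 fell by 0.47. Among ADAMTS-like genes, which lack the protease domain, 1 of 4 tested (Papln) rose by 1.09. The 4 ADAMTS genes that rose here did not pass at day 4, and their signs were mixed. There Adamts8 differed by −0.80 (SE 0.18) and Adamts14 by −0.48 (SE 0.17), while Adamts9 differed by 1.15 (SE 0.51) and Adamts20 by 0.56 (SE 0.38).

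Inhibitors did not pass: of Timp1, Timp2, Timp3 and Reck, 0 of 4 tested did, and their median change was −0.03. Timp2, the most abundant in normalised counts, stood at 18882 ± 1625 in WT and 18217 ± 1669 in KO tumours. Among partners of ADAM10 and ADAM17, 12 of 13 were tested, and 1 rose and 3 fell, against 11.3% and 11.4% of all tested genes. Rhbdf1, which encodes iRhom1, fell by 0.28 (SE 0.06, adjusted p = 0.00524), and the tetraspanins Tspan33 and Tspan17 fell by 0.77 and 0.24, while Tspan14 rose by 0.17.

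Of 21 tested genes whose products the sheddases are known to release, 4 rose and 4 fell, against 11.3% and 11.4% of all genes. Hbegf, an EGF receptor ligand, rose by 0.81 (SE 0.14, adjusted p = 0.00138), the Notch ligands Dll1 and Jag1 by 0.85 and 0.25, and the adhesion molecule Vcam1 by 0.48. Axl, a receptor tyrosine kinase, fell by 0.39 (SE 0.05, adjusted p = 0.000102), from 25715 ± 1135 to 19586 ± 807 normalised counts. Il6ra fell by 0.54, Notch2 by 0.27 and Tnfrsf1b by 0.16.

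Among 10 tested genes for matrix proteins that ADAMTS proteases cut or bind, and their clearance receptor Lrp1, 1 changed, against 22.7% of all genes: Vcan, which encodes versican, rose by 0.39 (SE 0.09, adjusted p = 0.00576), from 2454 ± 320 to 3213 ± 316 normalised counts (SD, n = 5 each). The median change of that list was −0.29, against −0.00 over all tested genes; it shares Dcn, Col1a1 and Col3a1 with the fibroblast markers, whose median was −0.32. In culture, at day 4 and at day 6 none of the genes of these lists passed with limma, against 0.327%, 0.0354% and 0.00% of all genes tested in those comparisons. The lists were assembled with results of these data known and are no independent evidence of direction.

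In culture none of the 6 tested members passed with limma, edgeR or DESeq2; 1 of 6, Adamts12, had an unadjusted p under 0.05 with limma, against 18.8% of all 11911 tested genes. Adamts12 had 93.7, 26.9 and 23.4 normalised counts in the 3 WT libraries and 189.8 and 130.3 in the 2 KO libraries. Both KO libraries were above all WT libraries, and parental WT library 1 was more than the other WT libraries together. The difference was 1.98 on the log2 scale (SE 0.60, 95% interval 0.55 to 3.41, adjusted p = 0.149). Without WT library 1 Adamts12 was higher by 2.60 (adjusted p = 0.00758, over all 14 alternatives 0.00758 to 0.477). The authors' deposited table gives it an adjusted p of 0.0247.

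Adam8 in culture set WT library 1 apart as well, with 1116 normalised counts against 156 and 132 in WT libraries 2 and 3, and 765 and 394 in the KO libraries. The groups overlapped only through WT library 1, and the difference was 0.94 (SE 0.88, 95% interval −1.15 to 3.03, adjusted p = 0.619). Without that library it was 1.93 (adjusted p = 0.0134 with limma), so that 2 of 6 members then passed. Calls rose over all genes as well, from 39 of 11911 to 1655 of 11736 tested. WT library 1 also had 15537 genes above 0, against 13972 to 14430 in the other culture libraries. Its adipocyte markers summed to 35.0 RPM, against 4.49 to 11.9 in the others, and its muscle markers to 20.6 against 4.13 to 6.76. Neutrophil markers summed to 4.30 RPM in it, against 0.854 to 2.15. It was not highest in macrophage or fibroblast markers, and the part of these markers' cells in the differences was not tested. The titles give the 3 WT libraries different names, so their spread may hold more than that of repeats.

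Adamts1, with 1189, 1061 and 981 normalised counts in WT and 1299 and 1255 in KO libraries, and Adam17, with 6888, 7213 and 7049 against 7224 and 7718, did not overlap between groups either. Their differences were 0.25 (adjusted p = 0.329) and 0.08 (adjusted p = 0.642). Groups did not overlap for 3 of 6 members, all higher in KO, and for 36.2% of all tested genes in culture (18.5% with KO higher). Adamts4 (2516 to 4066 in WT, 3249 and 4092 in KO; difference 0.24, 95% interval −0.26 to 0.74) and Adam10 (5614 to 6419 in WT, 5107 and 5651 in KO; −0.16, 95% interval −0.40 to 0.07) overlapped. Fibroblast markers summed to 99.3 to 156 RPM in WT and 361 to 837 RPM in KO libraries, with 3 of 10 tested, 0 passing, and Lum, Thy1 and Postn at 0 in all 5. Of the tested genes, those for collagens had changes of opposite sign, Col1a1 with a log2 change of 3.19 (1765 to 17032 mean normalised counts) and Col3a1 with −0.98 (285 to 136). Their part in the Adamts12 difference was not tested.

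At day 4 in C57BL/6 hosts none of the 10 members passed with limma or edgeR, and of all genes 5 of 14105 passed with limma. With DESeq2 1 of 10, Adamts12, passed, and of all genes 689 of 13911 did. The unadjusted limma p was under 0.05 for 2 of 10, Adam12 and Adamts12, and for 15.0% of all tested genes. Groups overlapped for all 10, against 5.76% of genes without overlap. The KO tumours spread widely for the members described next.

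Adamts12 had 260.1, 266, 175 and 290.4 normalised counts in WT and 967, 595, 388, 937 and 179 in KO tumours. KO tumours 1 to 4 were above every WT tumour, and KO tumour 5 was close to the lowest WT tumour. The difference was 1.09 (SE 0.45, 95% interval 0.08 to 2.09, adjusted p = 0.305, over 21 alternatives 0.0443 to 0.928). Without KO tumour 5 the difference was 1.47 (adjusted p = 0.0798). DESeq2 on reads gave 1.31 (adjusted p = 0.0443), and the authors' deposited table has an adjusted p of 0.0402.

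Adam12, a metalloprotease known from mesenchymal cells, had 441, 442, 304 and 409 normalised counts in WT and 1444, 766, 499, 999 and 348 in KO tumours. Here too, KO tumours 1 to 4 were above all WT tumours and KO tumour 5 lay within their range. The difference was 0.86 (SE 0.36, 95% interval 0.05 to 1.67, adjusted p = 0.309).

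Adamts2 had 1622, 773, 479 and 806 normalised counts in WT and 2824, 2062, 628, 2966 and 585 in KO tumours, and Adamts5 had 585, 62.9, 131 and 252 against 512, 452, 124, 855 and 133. For both genes WT tumour 1 and KO tumours 1, 2 and 4 were the 4 highest of 9. The differences were 0.79 (95% interval −0.46 to 2.04) and 0.77 (95% interval −0.86 to 2.39). Adam19, with 539, 297, 235 and 460.0 against 1123, 459, 316, 773 and 348, differed by 0.56 (adjusted p = 0.540).

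The 4 libraries just named had the highest fibroblast marker sums. KO tumour 4 had 14396 RPM, KO tumour 1 had 13969, WT tumour 1 had 11247 and KO tumour 2 had 10985, against 3053 to 4238 RPM in the other 5. The cultured cells had reads of this list too (99.3 to 156 RPM in WT, 361 to 837 RPM in KO), so it does not mark host cells alone. In RPM, the same 4 libraries held the 4 highest values of Adamts2 (at least 69.5 against at most 34.5), of Adamts5 (20.5 against 10.8) and of Adam19 (20.8 against 19.7). They did not for Adam12 and Adamts12: WT tumour 1 had 18.9 RPM of Adam12 and 11.1 RPM of Adamts12, below KO tumour 3 with 21.3 and 16.6 RPM. Markers of other tissues are given beside these. The same 4 libraries also had the highest sums of macrophage, T cell and adipocyte markers. Macrophage markers summed to at least 3014 RPM in them and at most 2025 RPM in the others. For T cell markers this was 3.11 against 1.49 RPM, and for adipocyte markers 418 against 255 RPM. Endothelial and pericyte markers did not follow, with WT tumour 1 lowest in both (70.6 and 268 RPM). Keratinocyte markers summed to 0.688 to 1.32 RPM in WT and 12.4 to 589 in KO tumours, without overlap. Among red blood cell markers the 4 globin genes had 0 reads in all day 4 libraries, so that sum was Alas2 alone. Alas2 ran from 2.02 to 5.85 RPM in WT and from 11.9 to 78.2 in KO tumours, also without overlap. Endothelial markers (70.6 to 305 and 235 to 922 RPM), pericyte markers (268 to 683 and 382 to 1225) and adipocyte markers (34.9 to 418 and 128 to 5295) overlapped. The part of these cells in the differences was not tested.

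Fits without the libraries highest in fibroblast markers were chosen after seeing the data. These libraries also hold most of the highest member levels, so smaller differences follow from the choice and the fits are no test of the fibroblast part. The 4 libraries highest in fibroblast markers were also highest in macrophage, T cell and adipocyte markers, so the fits do not separate these from fibroblasts. Without KO tumours 1 and 4 the difference was 0.50 for Adamts12, 0.37 for Adam12, 0.13 for Adamts2, 0.07 for Adamts5 and 0.03 for Adam19. Without all 4 libraries it was 0.14 for Adamts12 (SE 0.39, n = 3 WT and 2 KO), 0.13 for Adam12, −0.14 for Adamts2, 0.01 for Adamts5 and 0.06 for Adam19. No member passed in either set, nor did Ddr1 (log2 change −2.13, adjusted p = 0.063 without 2 libraries; −1.99, adjusted p = 0.170 without 4). The fibroblast sums had a median of 4153 RPM in WT and 10985 RPM in KO tumours, and the 10 markers a median log2 change of 0.67. None of the 10 passed, against 0.0354% of all tested genes.

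**Figure D4:**
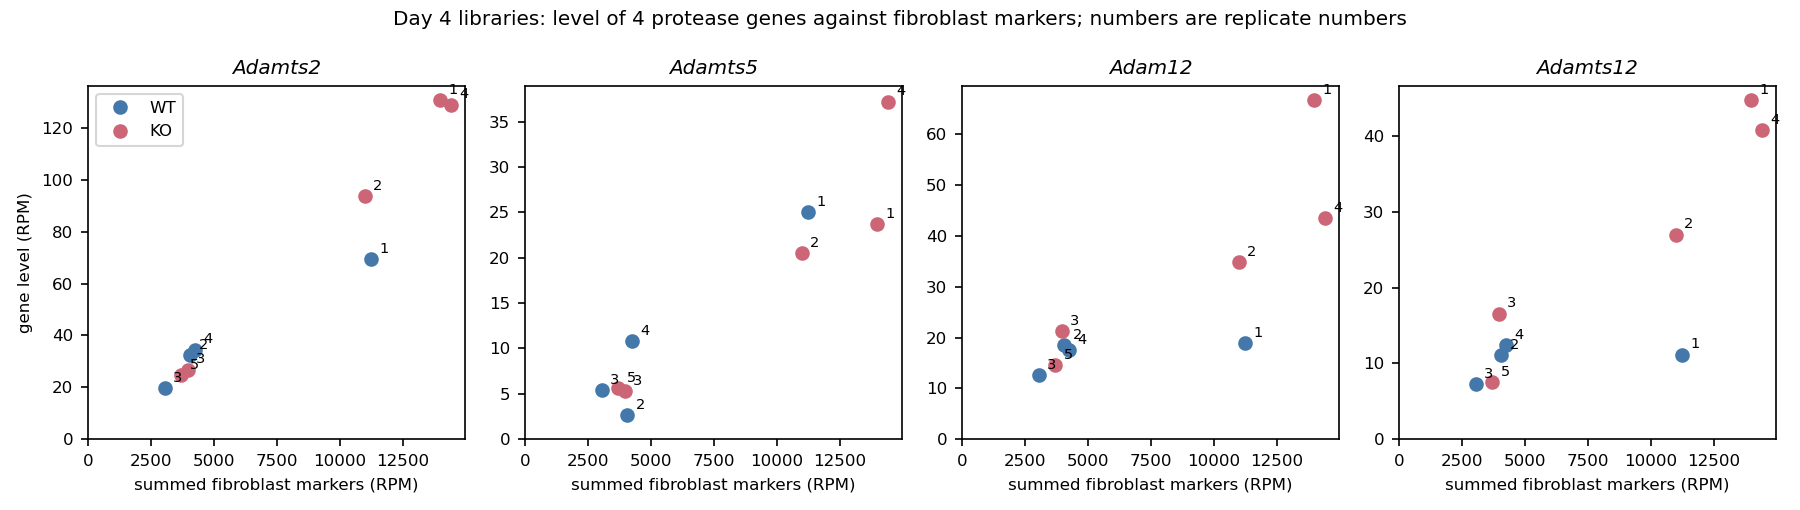
Level in RPM of Adamts2, Adamts5, Adam12 and Adamts12 (vertical axes) against summed fibroblast markers in RPM (horizontal axes) in the 9 day 4 tumours (blue WT, red KO), numbered by replicate. WT tumour 1, at 11247 RPM of fibroblast markers, is among the highest for Adamts2 and Adamts5 and lies with the other WT tumours for Adam12 and Adamts12. WT tumour 1 and KO tumours 1, 2 and 4 were also highest in macrophage, T cell and adipocyte markers. The cultured cells also had reads of the fibroblast list.

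Intervals of the remaining members included 0 at day 4. Adam8 had 8123 to 14893 normalised counts in WT and 5737 to 11588 in KO tumours (difference −0.30, 95% interval −0.81 to 0.21). Adam10 differed by −0.12 (−0.48 to 0.25), Adam17 by −0.07 (−0.36 to 0.23), Adamts1 by −0.14 (−0.81 to 0.54) and Adamts4 by 0.08 (−0.73 to 0.90). The intervals of Adamts1 and Adamts4 include the sizes called in Rag1-/- hosts. Over the 10 genes the median was 0.32, against 0.00 over all tested genes.

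The KO effect in the 2 hosts was compared gene by gene through the 2 log2 changes and their SEs. The labels give no day for the Rag1-/- tumours, the cells of day 4 were moved between hosts per the design text, and the tables were normalised separately. A part of the host cannot be told apart from these differences. None of the 10 differences passed, with 2.99% of 11247 genes passing; Adam12 alone had an unadjusted p under 0.05. For Adamts12 the effects were 1.13 in Rag1-/- hosts and 1.09 at day 4, a difference of −0.05 (day 4 minus Rag1-/-; 95% interval −1.08 to 0.98, adjusted p = 0.972). The widest gap was that of Adamts2, with −0.43 and 0.79 (difference 1.23, 95% interval −0.07 to 2.52, adjusted p = 0.293), followed by Adamts5 (0.95) and Adam12 (0.92, 95% interval 0.01 to 1.83, adjusted p = 0.262).

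At day 6, antibody against IgG, none of the 10 members passed with limma, edgeR or DESeq2. No gene of 14155 passed with limma (0.00%) or edgeR, 166 passed with DESeq2, and 1218 had an unadjusted limma p under 0.05 (8.60%). Among the members 2 had an unadjusted p under 0.05, Adam8 and Adam10.

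Adam8 had 6164, 6732, 5905 and 5799.5 normalised counts with IgG and 5275, 3216, 5398 and 4836 with the antibody. All 4 antibody tumours were below all 4 IgG tumours, with antibody tumour 2 far below the rest. The difference was −0.42 (SE 0.17, 95% interval −0.80 to −0.04, adjusted p = 0.517 with limma). Adam8 was the 1 member of 10 whose groups did not overlap, against 3.90% of all tested genes and 1.87% with the antibody lower. Macrophage markers overlapped between groups (2567 to 5171 RPM with IgG, 2380.5 to 9840 with the antibody), as did neutrophil markers (17.6 to 38.6 and 13.8 to 56.5 RPM). Muscle markers ran from 125 to 5821 RPM with IgG and from 5.57 to 192 RPM with the antibody. Adipocyte markers summed to 24.2 to 62.9 and 42.8 to 738 RPM, keratinocyte markers to 0.343 to 1.01 and 0.931 to 181, and epithelial markers to 185 to 207 and 185 to 515, and the part of any of these cells in the difference was not tested.

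Adam10 had 6640.4, 5173, 5411 and 5827 normalised counts with IgG and 4801, 3824, 5654 and 4203 with the antibody. Antibody tumour 3 lay within the IgG range and the other 3 below it, for a difference of −0.33 (95% interval −0.65 to −0.00, adjusted p = 0.517). Adam17 had 6451 to 7052 and 4625 to 6644 normalised counts (−0.20, 95% interval −0.50 to 0.09), and Adamts4 had 2164 to 2818 and 1559 to 2575 (−0.34, 95% interval −0.72 to 0.03). For both genes the groups overlapped.

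The low-level members varied within both arms. Adam12 ranged from 91.2 to 273 normalised counts with IgG and 51.0 to 199 with the antibody, Adamts2 from 310.5 to 979 and 287 to 577, and Adam19 from 219.7 to 614 and 169.8 to 624. Adamts12, with 246, 189, 146 and 286 against 168, 136, 248 and 216, differed by −0.16 (95% interval −0.78 to 0.45). Adamts5 was the 1 member of 10 with a log2 change above 0 (0.54, 95% interval −0.38 to 1.45), against 48.4% of all tested genes. The median of the 10 was −0.31, against −0.01 over all tested genes.

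The members differed in how much they varied among tumours of 1 group. Adam17 varied least: its within-group SD on the log2 scale was 0.06 in Rag1-/- hosts, 0.20 at day 4 and 0.17 at day 6, against medians over all genes of 0.12, 0.29 and 0.29. For Adam10 it was 0.07, 0.26 and 0.21. Adamts5 varied most in Rag1-/- hosts (0.87, above 99.1% of genes) and at day 4 (1.29, above 94.9%).

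Members also varied together. Over the 27 tumour libraries, after each group mean was subtracted, Pearson's r was 0.81 between Adam10 and Adam17, 0.76 between Adam10 and Adamts1, and 0.70 between Adamts1 and Adamts4. Adamts2 had r = 0.79 with Adam19, 0.76 with Adamts5 and 0.75 with both Adam12 and Adamts12, and Adam12 had 0.76 with Adamts12. Adamts12 also had 0.67 with Adamts1 and 0.59 with Adam10, and 0.49 with Adamts5. Adamts4 and Adamts5 had r = −0.10. These are descriptions over points that share libraries, depth and tissue makeup, and most of the spread comes from day 4 and day 6.

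The genes most like each member over those 27 libraries, among 10808 compared, were named by the same measure. For Adam19 they were Itgb2 (r = 0.93), Ptprc (0.92), which encodes the leukocyte antigen CD45, and Fmnl1 (0.92). For Adam12 they were Col5a2 (0.86), a fibrillar collagen gene, Colec12 (0.85) and Cdh11 (0.82). For Adamts5 they were Dsel (0.88), Pi16 (0.86) and Gda (0.85), and for Adamts12 Lrrc32 (0.88), Rps6ka3 (0.87) and Zbtb46 (0.86).

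For Adam10 the most similar genes were Ubr1 (0.96), Thoc2 (0.96) and Arid4a (0.94), and for Adam17 Myo9a (0.94), Camk1d (0.91) and Elf4 (0.91). For Adam8 they were Pcnx (0.87), Tns3 (0.84) and Ksr1 (0.83), for Adamts1 Spty2d1 (0.89), Gosr1 (0.88) and Ipmk (0.87), for Adamts2 Wdfy4 (0.90), Sgk3 (0.90) and Scamp1 (0.90), and for Adamts4 Notch4 (0.88), Ccbe1 (0.84) and Rgs20 (0.83). Likeness was uneven between tables: Adam8 and Tns3 had r = 0.93 at day 4 and −0.02 over the 10 Rag1-/- tumours, and Adam19 and Ptprc had 0.96 and −0.23.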

How the data were processed

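The members and gene lists were chosen with earlier results of these data known. RNA was extracted with Trizol and made into libraries with an Illumina stranded mRNA kit, per the labels' protocols. CASAVA, TopHat, DESeq2 and mm10 stand in the submitters' processing notes; for the counter, the annotation, the use of strand and all versions, nothing was found in the labels or files used here. The authors deposited 4 tables of normalized signal, in which each library's read counts had been divided by a size factor, not raw counts. Undoing that division gave whole reads for 100% of values (tolerance 0.01), from which depth and RPM were computed. The authors' deposited p-values are quoted as theirs, and 18 further deposited columns of summary values were not used.

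Each table was tested alone with limma 3.58.1 (R 4.3.3; trended prior variance, Benjamini-Hochberg adjustment, threshold 0.05). Values were log2(normalized count + 1), and genes needed a mean of at least 10. This scale understates changes of low genes, and p-values are two-sided. KO effects in the 2 hosts were compared from the estimates and their SEs. The choices varied were the pseudocount (0.5 or 5), the filter (none, or 50), the scaling (upper quartile or quantile), the trend, the tool (edgeR 4.0.16 or DESeq2 1.42.0 run on whole reads), a replicate block, and leaving out single libraries. Fits without the 2 or 4 day 4 libraries highest in fibroblast markers were added after seeing the data. The procedure was also run on simulated counts with the same fixed spread for every gene. That spread is lower than at day 4 and day 6, so the run is no check of the results there. Named genes were Ddr1, the 10 members, up to 4 called genes per list and direction, and the 3 genes most like each member. Positions, exon lengths and reading frames are from GENCODE M21 (GRCm38), matched by symbol. Of the 10 members, 7 matched a RefSeq promoter entry; Adam12, Adamts4 and Adamts5 did not. One check of overlapping genes is not reported here. Levels and plots were made in Python 3.11.15 with pandas 2.3.3, numpy 2.4.6 and matplotlib 3.10.9.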

Additional observations from a re-analysis of the deposited data

Results flagged for a closer look

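In 4 of 66 gene and group combinations checked (groups of 4 or 5 libraries, the 10 members and Ddr1), 1 library stood apart from the rest of its group by the Dixon test; chance gives this in about 1 of 20 groups. In Rag1-/- hosts Adam8 was lowest in WT tumour 1, at 1227 normalised counts against 1505 to 1607 in the other 4. Adamts5 was highest in KO tumour 2, at 88.9 against 13.3 to 29.9, and that library also had the highest adipocyte marker sum of the 10, 113 RPM. At day 4 Adamts4 was highest in KO tumour 1, at 3414 against 1275 to 1594, and Ddr1 was highest in KO tumour 5, at 1181 against 615 to 728.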

How the results depend on the processing

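Of 1042 log2 changes of single genes (the 10 members and Ddr1) recomputed under the alternatives, 1005 kept their direction and side of the threshold, 8 passed that had not, 2 no longer passed (Ddr1 at day 4) and 27 changed sign. Adamts12, Adamts1 and Adamts4 passed in Rag1-/- hosts in all 20 alternatives (log2 changes 1.06 to 1.19, 0.31 to 0.36 and 0.22 to 0.28). The count of members that passed there was 5 with quantile normalization, which added Adam10 and Adam17, and 3 to 4 with 1 library left out. It was 0 to 2 in culture with 1 library left out (2 without WT library 1) and 1 at day 4 with DESeq2 (Adamts12). Over all genes, culture gave 39 calls with limma, 25 with edgeR, 12 without the trend, 1055 with DESeq2 and 2 to 1655 with 1 library left out, the most without WT library 1. Day 4 gave 5 with limma, 9 without a filter, 689 with DESeq2 and 3 to 50 with 1 library left out, the most without KO tumour 5. Day 6 gave 0 with limma, 166 with DESeq2 and 0 to 5 with 1 library left out (5 without antibody tumour 1), and the difference between hosts 336 calls, or 154 to 472 with 1 library left out. In Rag1-/- hosts limma split into 1441 higher and 1463 lower, and upper-quartile rescaling into 1591 and 1287.

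Same-numbered tumours did not all deviate together. The correlation of their deviations was −0.20 to 0.15 (Rag1-/- hosts), −0.17 to 0.14 (day 4) and −0.20 to 0.45 (day 6, where pairs 1 and 4 had 0.45 and 0.35). With the replicate block 3, 0 and 0 members passed in these tables (2411, 1 and 0 of all genes). For the difference between hosts, 2 members (Adam12 and Adamts2) and 198 genes then passed. The block drops KO tumour 5 at day 4, which has no partner. It turned the difference between hosts to 0.34 for Adamts12 and −0.057 for Ddr1, and the day 4 change of Adamts1 to 0.0072. No paired analysis was possible in culture because its numbers are only names.

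The other direction changes were of values that did not pass, and their cause was not tested. At day 4, Adam17 was 0.019 with quantile normalization and −0.17 to 0.0043 with 1 library left out, Adamts1 −0.28 to 0.093 and Adamts4 −0.23 to 0.36 with 1 library left out. Without the 2 libraries highest in fibroblast markers Adamts4 was −0.19, and without the 4 highest it was −0.43 and Adamts2 −0.14. For the difference between hosts Adamts12 was 0.0032 with a pseudocount of 5. With 1 library left out that difference was −0.27 to 0.34 for Adamts12, −0.011 to 0.45 for Adam19, −0.48 to 0.12 for Adamts4 and −0.057 to 0.19 for Ddr1. In Rag1-/- hosts Adam12 was −0.18 to 0.10 and Adamts5 −0.64 to 0.022 with 1 library left out, and Adamts5 was 0.13 with DESeq2 and 0.11 with edgeR. Adam12 and Adamts5 had 0 reads in culture, and Adam19 and Adamts2 too few to be tested.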
